A study of Mus musculus with 29 samples.

Results

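Interstitial progenitor genes, the markers of the adipose stem cell class called ASC2, were followed here as 9 genes: Dpp4, Cd55, Pi16, Anxa3, Cd34, Ly6a, Ly6c1, Mfap5 and Limch1. They were chosen by name, as the rows of the count table whose Ensembl identifier maps to these mouse symbols, and make up 9 of the 56953 features in the table. All 9 were found, and 8 passed the filter on low counts; Limch1, with 15 counts over all libraries, did not. Crude stromal vascular fraction (SVF), the non-adipocyte cells released by digesting fat, came from 2 white fat depots, inguinal (iWAT) and perigonadal (pgWAT), of adult male and female C57BL6/J mice. All cultures were grown for 4 days in PM1, a preadipocyte growth medium, with 1 nM basic FGF, so no untreated cultures and no second genotype enter any comparison. Bulk RNA of each well was sequenced with the Smart-seq3 protocol. By the labels 10 libraries were of male and 9 of female iWAT, and 4 were of male and 6 of female pgWAT, 29 in all. The study's own text gives other group sizes for these cultures, and the labels were used throughout.

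Interstitial progenitors are fibroblast-like cells of the connective tissue sheets around and between fat lobules, marked by the surface protease DPP4, and are regarded as an early and less committed stage from which ICAM1-positive preadipocytes arise. Their marker genes serve as a sorting panel more than as a pathway: most encode surface antigens or secreted matrix proteins, and several, such as Cd34 and Ly6a, are shared with other progenitors and with endothelial cells. The question put to the 29 wells was whether these genes, which mark 1 cell class in fresh tissue, went up and down together in cultured SVF. In such bulk RNA, fewer cells of a class and less RNA per cell cannot be told apart.

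Library totals ranged from 315316 to 1102234 counts, with 12200 to 15394 features detected. Levels are given as CPM, counts relative to library totals scaled by TMM factors, and 3 counts, the limit that a count of 0 allows, equal between 2.58 and 9.76 CPM depending on the library; these limits cover counting error only. The study describes its wells as technical replicates of a few independent experiments, and the labels do not assign wells to experiments. All p-values therefore measure the spread between wells, not between animals. Counts of Xist and of Y-linked genes matched the labelled sex in all 19 iWAT libraries but in only 5 of the 10 pgWAT libraries. They contradicted the label in 4 (labelled male replicates 2 and 4, labelled female replicates 2 and 3) and showed both in 1 (labelled female replicate 1). The labels were kept, sex is called labelled sex in pgWAT, and results that rest on these 5 libraries are given with and without them. The labels also name a plate well for each library. Their rows run past those of the 96-well plates used for culture, so they were read as positions on the larger plate on which the libraries were made. These positions followed the groups: 11 iWAT but 1 pgWAT libraries came from well column 7, and 3 pgWAT but 1 iWAT from well column 10. Fibroblast markers (6 genes, among them Col1a1 and Dcn) summed to between 6387 and 22688 CPM, against 54.8 to 203 CPM for 8 endothelial and 14.5 to 69.4 CPM for 6 mural cell markers. Macrophage and leukocyte markers were not as scarce, with sums from 589 to 7650 CPM, the highest in pgWAT wells labelled male.

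The upstream sequences of 4 members that differed between the depots are shown, since the results turn on their opposite directions. Each is the RefSeq stretch from 250 bases before to 50 bases after the annotated gene start on GRCm38.p6, read along the gene. RefSeq promoter windows matched 6 of the 9 members, and none was matched for Anxa3, Ly6a and Mfap5. Capitals mark matches, on either strand, to the TATA box (TATAAA), the CCAAT box (CCAAT), the GC box (GGGCGG), an AP-1 site (TGANTCA), a TEAD site (GGAATG) or a GAS element (TTCNNNGAA). Dpp4 lies at chr2:62412182-62412481 and Cd55 at chr1:130462695-130462994, both on the minus strand. Cd34 lies at chr1:194938571-194938870 on the plus strand and Ly6c1 at chr15:75048788-75049087 on the minus strand.
Dpp4: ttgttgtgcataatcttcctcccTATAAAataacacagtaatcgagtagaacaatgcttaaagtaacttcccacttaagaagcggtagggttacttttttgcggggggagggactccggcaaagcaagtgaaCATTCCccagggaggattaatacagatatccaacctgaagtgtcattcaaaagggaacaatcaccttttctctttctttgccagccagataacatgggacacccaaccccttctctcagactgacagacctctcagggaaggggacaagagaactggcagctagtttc
Cd55: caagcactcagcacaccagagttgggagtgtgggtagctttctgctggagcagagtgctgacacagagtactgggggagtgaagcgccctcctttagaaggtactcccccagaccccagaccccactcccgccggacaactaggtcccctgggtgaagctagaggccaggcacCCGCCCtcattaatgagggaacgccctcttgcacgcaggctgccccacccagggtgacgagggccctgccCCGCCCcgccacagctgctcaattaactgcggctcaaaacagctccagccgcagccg
Cd34: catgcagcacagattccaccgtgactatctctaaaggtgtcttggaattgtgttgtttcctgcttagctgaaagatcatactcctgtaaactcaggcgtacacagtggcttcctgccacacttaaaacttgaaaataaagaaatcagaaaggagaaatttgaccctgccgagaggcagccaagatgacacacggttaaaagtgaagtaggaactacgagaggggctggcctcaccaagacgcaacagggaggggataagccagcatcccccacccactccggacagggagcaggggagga
Ly6c1: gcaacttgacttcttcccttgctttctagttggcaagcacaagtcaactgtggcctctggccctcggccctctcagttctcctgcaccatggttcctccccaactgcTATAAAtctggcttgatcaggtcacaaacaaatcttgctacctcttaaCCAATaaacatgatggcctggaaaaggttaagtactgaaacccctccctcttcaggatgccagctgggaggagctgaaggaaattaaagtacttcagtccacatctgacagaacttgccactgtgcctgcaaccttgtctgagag
Dpp4 held a TATAAA at -227 and a TEAD match at -118 from the gene start, and Cd55 held GC boxes at -77 and -7. Of the 2 genes lower in pgWAT, Ly6c1 held a TATAAA at -143 and a CCAAT at -95, whereas Cd34 held none of the 6 motifs. Among 32851 RefSeq promoter windows of this length, 13.6% held TATAAA, 37.4% CCAAT, 35.7% GGGCGG, 7.81% TGANTCA, 14.7% GGAATG and 8.30% TTCNNNGAA. A match of letters is a description and not a bound site.

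The coding sequences of Ly6c1 and of its neighbour Ly6c2 are shown because the counting of reads between them decides what a Ly6c1 value means. Both are 396 bases long in the GENCODE M21 transcripts on GRCm38 and differ at 9 bases, an identity of 97.7%. The first 300 bases from the start codon are printed, and capitals mark the 7 differing bases within them.
Ly6c1: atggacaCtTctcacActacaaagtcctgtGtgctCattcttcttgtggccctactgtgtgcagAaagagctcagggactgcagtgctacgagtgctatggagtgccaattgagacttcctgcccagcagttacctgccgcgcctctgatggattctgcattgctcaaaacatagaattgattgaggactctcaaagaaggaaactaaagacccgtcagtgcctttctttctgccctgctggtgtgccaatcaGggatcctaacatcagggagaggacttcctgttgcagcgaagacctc
Ly6c2: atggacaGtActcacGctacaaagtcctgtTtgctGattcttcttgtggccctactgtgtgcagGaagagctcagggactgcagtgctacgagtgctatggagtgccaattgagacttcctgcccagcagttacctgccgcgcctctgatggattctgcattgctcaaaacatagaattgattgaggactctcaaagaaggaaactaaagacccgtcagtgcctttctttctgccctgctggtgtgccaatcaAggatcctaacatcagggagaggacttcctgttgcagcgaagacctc
Of the 31-base words in Ly6c1 transcripts, 46.8% occurred in transcripts of other genes, 33.0% in Ly6c2. For Ly6a the share was 31.9%, of which most, 21.9% of all words, lay in Ly6c1, and for Cd55 it was 11.4%, nearly all in Cd55b. Dpp4 and Mfap5 shared none. Ly6c2 itself was assigned 10 counts over the 29 libraries and Cd55b 0, so nearly all reads of these pairs were counted to the members; how the quantifier split shared reads was not tested, and values of Ly6c1 and Ly6a are uncertain to that extent.

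Across all wells the members did not move as 1 group between the depots. In the contrast of pgWAT with iWAT, with labelled sexes weighted equally, Dpp4, Cd55 and Mfap5 were higher and Cd34 and Ly6c1 lower in pgWAT, while Anxa3, Ly6a and Pi16 did not pass the test. The test was edgeR's quasi-likelihood F test, two-sided, with a Benjamini-Hochberg false discovery rate (FDR) below 0.05 over the 8853 genes that passed the filter. Over all these genes 38.1% were called, 20.1% higher and 17.9% lower, so the depots differed broadly and 5 of 8 members called (62.5%) has to be read against that share. The median log2 fold change was -0.09 over the 8 members and 0.01 over all genes tested, and the median size of the change without its sign was 1.10 for the members against 0.32 for all genes.

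**Figure D1:**
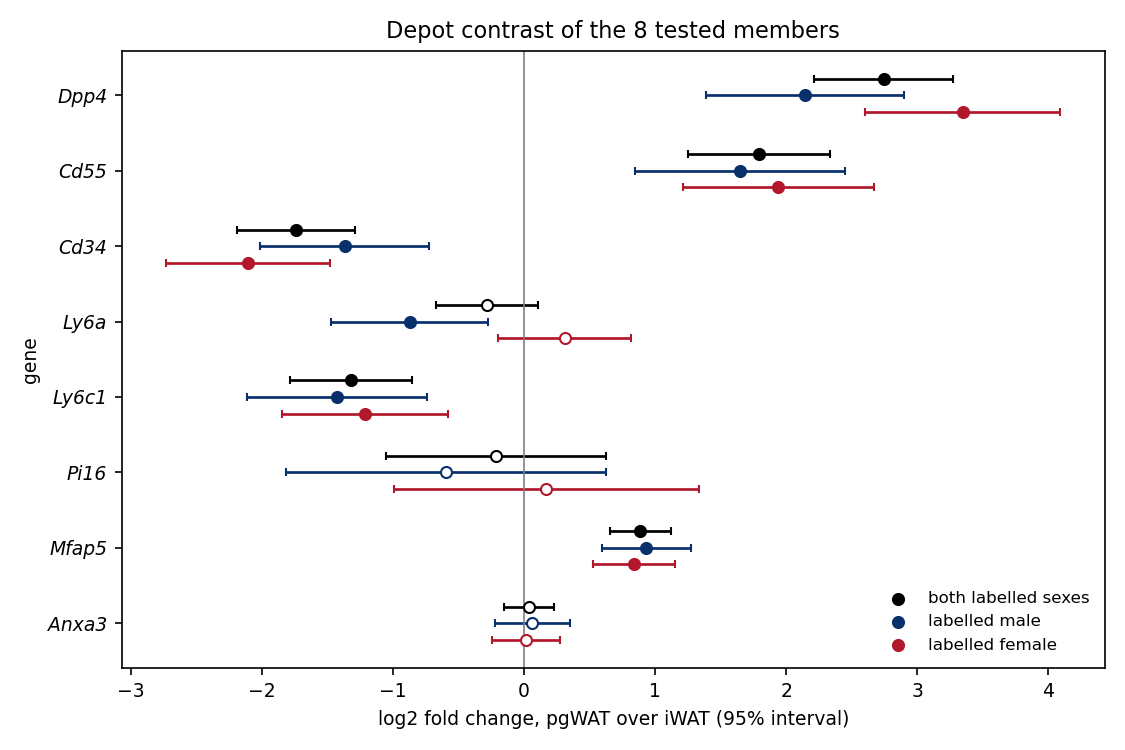
Depot contrast of the 8 tested members. The x axis gives the log2 fold change of pgWAT over iWAT and the bars its 95% interval, for both labelled sexes together (black), labelled male (blue) and labelled female (red); filled points passed an FDR of 0.05. Dpp4, Cd55 and Mfap5 sit to the right of 0 and Cd34 and Ly6c1 to the left in all 3 contrasts, and Ly6a sits at -0.87 in labelled male and 0.31 in labelled female.

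Dpp4 (ENSMUSG00000035000.9), the membrane dipeptidyl peptidase that defines the interstitial progenitor in sorting, was scarce in iWAT and clearly present in pgWAT. In iWAT male wells it ranged from 2.99 through a median of 6.13 to 15.8 CPM, and in iWAT female wells from 0 through 2.58 to 7.94 CPM. The 4 pgWAT wells labelled male held 17.4, 46.7, 12.5 and 36.4 CPM in replicates 1 to 4, and the 6 labelled female ran from 30.4 through 35.5 to 41.5 CPM. The pgWAT wells were thus high and the iWAT wells low, with 9 of 10 pgWAT wells above every iWAT well; labelled male replicate 3 alone fell below the highest iWAT well. Means were 5.08 ± 3.62 CPM in iWAT (SD, n = 19) and 32.7 ± 10.6 CPM in pgWAT (SD, n = 10), and the fitted fold was 6.70 (log2 2.74, SE 0.261, FDR 2.56e-10 by edgeR's quasi-likelihood test). The iWAT level rests on 58 counts in all, with 3 or fewer in 13 of 19 wells, whereas the pgWAT wells held 9 to 34 counts each. The 2 iWAT female wells without counts, replicates 2 and 9, had 0, which allows up to 4.63 and 7.40 CPM.

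Cd55 (ENSMUSG00000026399.13), the membrane-anchored decay-accelerating factor that protects cells from complement, followed Dpp4. It ran from 3.98 through 7.30 to 16.6 CPM in iWAT male wells and from 2.38 through 7.94 to 17.0 CPM in iWAT female wells. The pgWAT wells labelled male held 5.21, 34.6, 15.3 and 45.0 CPM, and those labelled female 26.0 to 38.4 CPM with a median of 33.1. In all, 8 of 10 pgWAT wells lay above every iWAT well, and the 2 that did not were labelled male replicates 1 and 3, which also held the lowest Dpp4 of pgWAT. The fold was 3.47 in pgWAT over iWAT (log2 1.79, SE 0.266, FDR 1.81e-06), from means of 8.14 ± 4.27 CPM (SD, n = 19) and 29.6 ± 11.7 CPM (SD, n = 10).

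Cd34 (ENSMUSG00000016494.10), a surface sialomucin of progenitor and endothelial cells that is used beside DPP4 to gate adipose stem cells, went the other way. Wells of iWAT male held 96.4 to 270.1 CPM with a median of 159, and wells of iWAT female 76.5 to 321 CPM with the same median of 159. The pgWAT wells labelled male held 95.5, 48.4, 80.5 and 43.9 CPM, and those labelled female 16.3 to 80.0 CPM with a median of 39.0. All 10 pgWAT wells were below the iWAT mean and 7 were below every iWAT well. Cd34 was 3.34-fold lower in pgWAT, at 52.2 ± 26.5 CPM (SD, n = 10) against 172 ± 60.6 CPM (SD, n = 19), with a log2 fold change of -1.74 (SE 0.222, FDR 1.28e-07). The 5 endothelial markers tested, which could carry Cd34 RNA too, gave 1 gene higher in pgWAT (Kdr) and 4 not called, and the endothelial sum ranged from 54.8 to 203 CPM in iWAT and from 95.4 to 198 CPM in pgWAT; none of the 8 was at 0 throughout. Their part in the Cd34 result was not tested.

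The Ly6 antigens, small surface proteins on lipid anchors, split between depots. Ly6c1 (ENSMUSG00000079018.11), an antigen of endothelial and some stromal cells, ran from 42.9 through 87.2 to 121 CPM in iWAT male wells and from 39.3 through 55.9 to 142 CPM in iWAT female wells. In pgWAT it held 29.5, 25.9, 18.0 and 45.0 CPM in labelled male wells and 20.7 to 48.0 CPM, median 29.4, in labelled female wells. In all, 7 of 10 pgWAT wells lay below every iWAT well and the level was 2.50-fold lower, 31.7 ± 10.7 (SD, n = 10) against 77.4 ± 32.4 CPM (SD, n = 19), at a log2 fold change of -1.32 (SE 0.229, FDR 2.10e-05). Ly6a (ENSMUSG00000075602.11), which encodes the stem cell antigen Sca-1, was among the most abundant members and overlapped widely between depots, with 8 of 10 pgWAT wells inside the iWAT range and 2 below it. It ran from 339 through 710.2 to 1608 CPM in iWAT male wells and from 403 through 505 to 1177 CPM in iWAT female wells. The pgWAT wells labelled male held 647, 306, 421 and 328 CPM, lower than all 6 labelled female wells except for replicate 1, which lay between them (612 to 992 CPM, median 718). The depot difference of Ly6a was -0.28 on the log2 scale (95% interval -0.67 to 0.11, FDR 0.257) and did not pass the test. With well column as a factor it did, at -0.50 (FDR 0.0340). Of the related genes, Ly6e, a ubiquitous family member, was not called (-0.14, FDR 0.522), Ly6k was higher in pgWAT (2.40, FDR 0.00115) and Ly6g had 8 counts in all.

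Of the secreted members, Mfap5 separated the depots and Pi16 did not. Mfap5 (ENSMUSG00000030116.15), the microfibril-associated glycoprotein MAGP-2 of elastic fibres, held 384 through 644 to 816 CPM in iWAT male wells and 515 through 665 to 882 CPM in iWAT female wells. The pgWAT wells labelled male held 1637, 952, 1108 and 1001 CPM, and those labelled female 1053 to 1539 CPM with a median of 1195. No pgWAT well fell within the iWAT range, a separation that 2.13% of all genes tested showed, and the fold was 1.85 (log2 0.89, SE 0.114, FDR 1.44e-07), from 650.1 ± 141 (SD, n = 19) to 1207 ± 224 CPM (SD, n = 10). Pi16 (ENSMUSG00000024011.18), a secreted or membrane-anchored protein of the CAP family that marks a fibroblast class found in many tissues, was spread widely within iWAT, from 0 through 13.0 to 33.4 CPM in male wells and from 0 through 5.65 to 29.6 CPM in female wells. The pgWAT wells labelled male held 3.47, 20.7, 5.55 and 10.7 CPM, and those labelled female 8.68 to 15.0 CPM with a median of 10.7. All pgWAT wells lay inside the iWAT range, and the log2 difference was -0.21 with a 95% interval of -1.05 to 0.63 (FDR 0.723). Pi16 had 169 counts over the 19 iWAT wells and 60 over the 10 pgWAT wells, and no difference inside that interval was detectable at this depth. Its sign turned to 0.40 (FDR 0.581) with well column as a factor.

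Of the intracellular members, Anxa3 was not called and Limch1 was barely detected. Anxa3 (ENSMUSG00000029484.13), a calcium-dependent membrane-binding annexin, held 339 through 420.0 to 596 CPM in iWAT male wells and 331 through 400.2 to 545 CPM in iWAT female wells. In pgWAT it held 385, 496, 439 and 473 CPM in labelled male wells and 317 to 486 CPM, median 442, in labelled female wells. Its levels overlapped almost completely, and the difference of 0.04 on the log2 scale had the narrowest interval of the members, -0.16 to 0.23 (FDR 0.787). Limch1 (ENSMUSG00000037736.21), an activator of non-muscle myosin, was assigned 4 counts in 4 of 19 iWAT wells and 11 counts in 4 of 10 pgWAT wells. With 4 counts as the highest value in any well, Limch1 was at or near the limit of counting and did not enter the main test. With no filter on low counts it was called higher in pgWAT (log2 2.15, FDR 0.0208), a value that rests on those 15 counts.

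**Figure D2:**
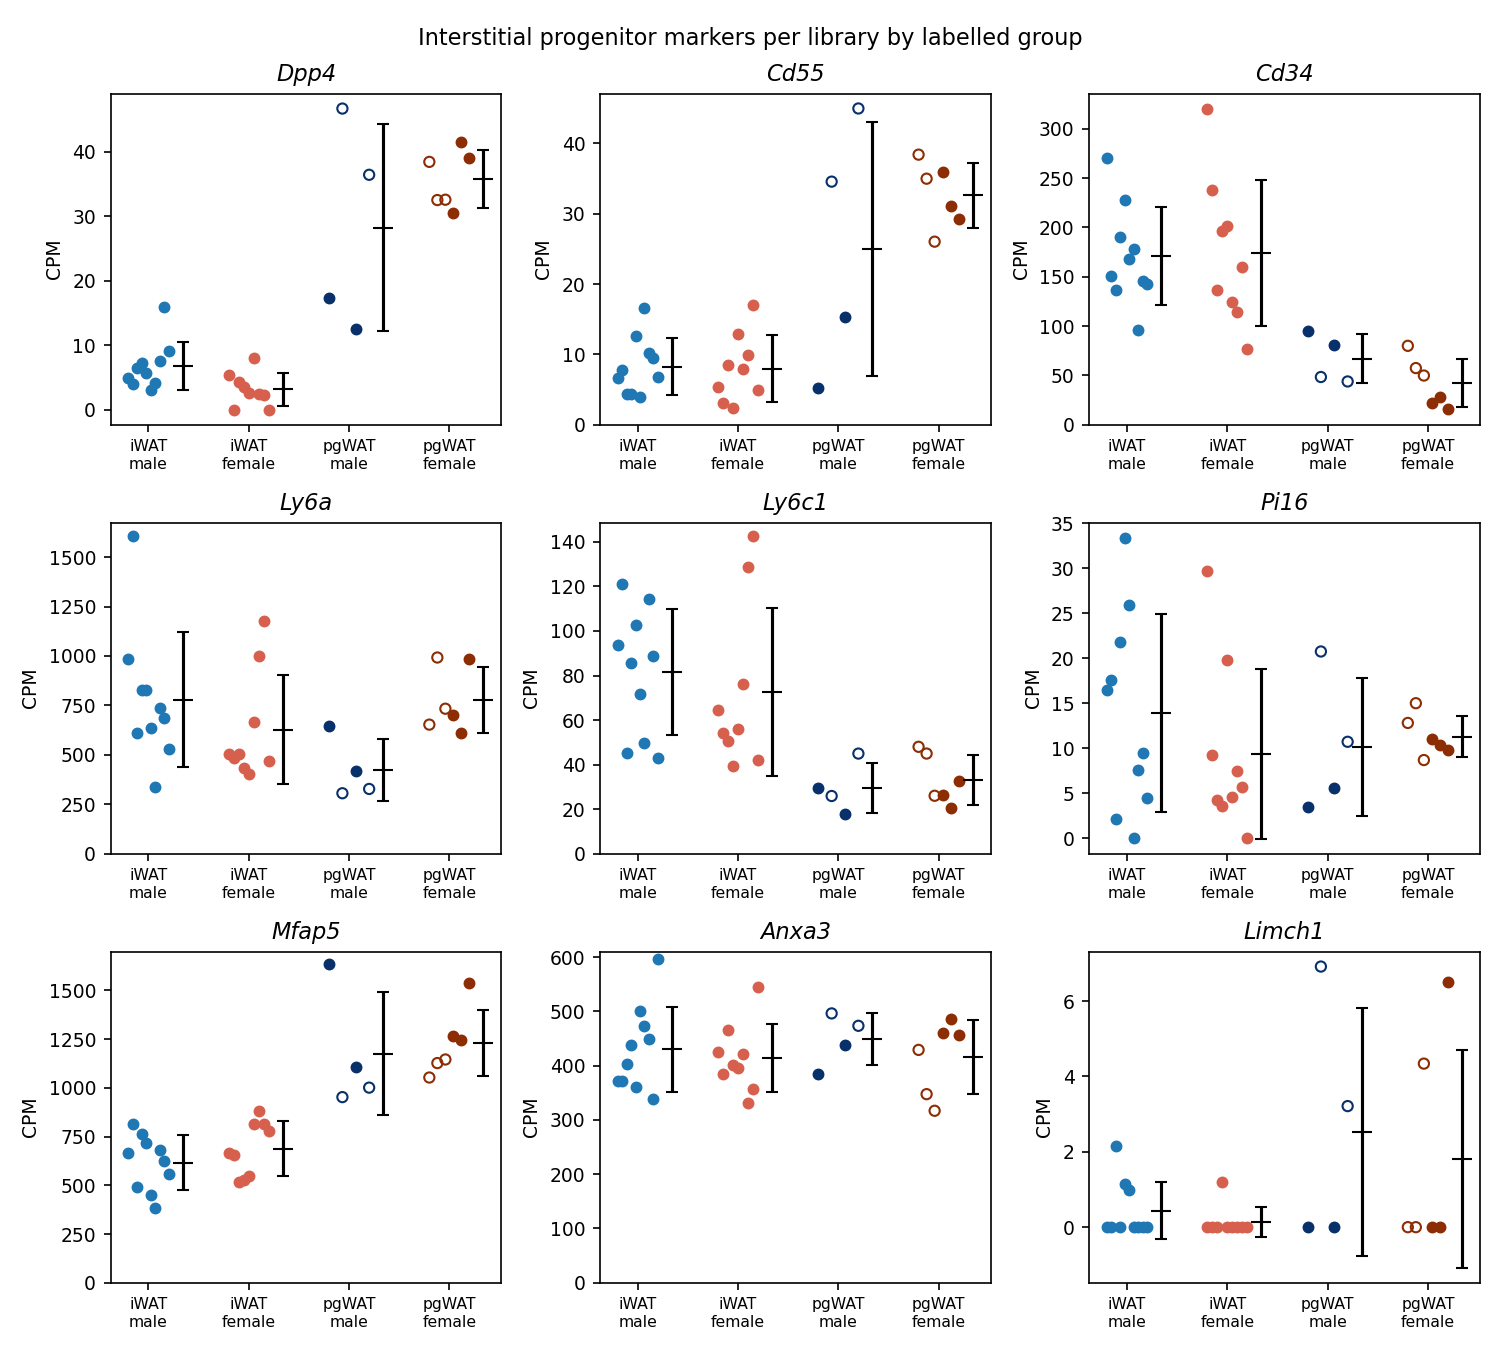
Level of each member in every library. Each panel shows CPM on a linear axis for the 4 labelled groups, with 1 point per well and the mean ± SD beside it; open points are the 5 pgWAT libraries whose sex-linked counts contradicted the label or showed both. In the Mfap5 panel all 10 pgWAT wells lie above all 19 iWAT wells, and in the Dpp4 and Cd55 panels the 2 filled points of pgWAT male are the lowest of their depot.

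Set per kilobase of the longest coding transcript, so that genes can be compared with each other, the order in iWAT was Ly6a (741 ± 327 CPM per kb), Mfap5 (432 ± 93.8), Anxa3 (265 ± 43.9), Ly6c1 (91.7 ± 38.4), Cd34 (67.5 ± 23.7), Cd55 (3.22 ± 1.69), Pi16 (2.94 ± 2.57), Dpp4 (0.963 ± 0.687) and Limch1 (0.0491 ± 0.104), each as mean ± SD over 19 wells. In pgWAT Mfap5 came first (802 ± 149), followed by Ly6a (668 ± 250), Anxa3 (269 ± 37.7), Ly6c1 (37.6 ± 12.6), Cd34 (20.4 ± 10.4), Cd55 (11.7 ± 4.60), Dpp4 (6.21 ± 2.01), Pi16 (2.71 ± 1.20) and Limch1 (0.355 ± 0.490), over 10 wells. In iWAT the neighbours Ly6a and Mfap5, Ly6c1 and Cd34, Cd55 and Pi16, and Pi16 and Dpp4 differed by less than the SD of the higher gene. In pgWAT this held for Mfap5 and Ly6a and for Cd34 and Cd55. Dpp4, Cd55 and Pi16 were thus the least abundant tested members in both depots, and Ly6a, Mfap5 and Anxa3 the most abundant.

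Within each labelled sex the same 5 genes passed the test, and in labelled male Ly6a passed too. In labelled male, with 20.3% of all genes called, Dpp4 (log2 2.14), Cd55 (1.65) and Mfap5 (0.93) were higher and Cd34 (-1.37), Ly6c1 (-1.43) and Ly6a (-0.87, FDR 0.0324) lower in pgWAT. In labelled female, with 26.8% called, Dpp4 (3.35), Cd55 (1.94) and Mfap5 (0.84) were higher and Cd34 (-2.11) and Ly6c1 (-1.21) lower. Ly6a was 0.31 there and did not pass (FDR 0.389). The labelled male result rested on the doubtful libraries. Without the 5 pgWAT libraries it kept Mfap5 (1.13, FDR 0.000204) and Ly6c1 (-1.82, FDR 0.0107) among its calls but not Dpp4 (1.19, FDR 0.177), Cd55 (0.36, FDR 0.768), Cd34 (-0.999, FDR 0.0817) or Ly6a (-0.57, FDR 0.410). Over all genes 872 were then called in labelled male, against 1801 with all libraries, and pgWAT male replicates 1 and 3 alone were left. The labelled female result without the 5 libraries again called Dpp4 (3.39), Cd55 (1.93), Mfap5 (0.97), Cd34 (-2.92) and Ly6c1 (-1.53). With both labelled sexes together and the 5 libraries left out, the same 5 members were called, with Dpp4 at 2.29, Cd55 at 1.14 (FDR 0.0166), Mfap5 at 1.05, Cd34 at -1.96 and Ly6c1 at -1.68. Ly6a and Cd55 in labelled male also lost their calls with single wells left out: Ly6a without iWAT male replicate 2 (FDR 0.0555) or pgWAT male replicates 2 (FDR 0.122), 3 (FDR 0.0618) or 4 (FDR 0.114), and Cd55 without pgWAT male replicate 4 (1.14, FDR 0.0884).

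Depot could be compared inside a well column in 2 places. In well column 8, 3 pgWAT wells labelled female were set against 3 iWAT female wells, all of them with matching sex-linked counts. Dpp4 (3.04), Cd55 (1.46, FDR 0.00824) and Mfap5 (0.68) were higher and Cd34 (-2.51) and Ly6c1 (-2.19) lower, as over all libraries. In well column 9, 2 pgWAT wells labelled male, both contradicted by their sex-linked counts, were set against 3 iWAT male wells. Dpp4 (3.24), Cd55 (2.40), Mfap5 (1.14), Cd34 (-1.82) and Ly6a (-0.75, FDR 0.0208) were called there and Ly6c1 was not (-0.65, FDR 0.145). The share of all genes called inside these columns is not given here, so the number of members called cannot be read against it.

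No member was called between male and female iWAT, or between the labelled sexes of pgWAT, by edgeR, DESeq2 or limma-voom. In pgWAT both labelled groups mixed wells with Xist counts and wells with Y-linked counts. The absence of calls there, and in the difference of depot contrasts below, therefore cannot decide whether sex matters in pgWAT. At an unadjusted edgeR p below 0.05 there was 1 of 8 in iWAT (Dpp4) and 1 of 8 in pgWAT (Ly6a), against 15.96% and 8.35% of all genes. Between iWAT male and iWAT female, where 3.22% of all genes were called, the largest value was that of Dpp4 (log2 0.87 higher in male, 95% interval 0.04 to 1.70, unadjusted p = 0.0408, FDR 0.286 by edgeR's quasi-likelihood test). Means of Dpp4 were 6.80 ± 3.68 CPM (SD, n = 10) in iWAT male and 3.16 ± 2.52 CPM (SD, n = 9) in iWAT female. Ly6a passed in the alternatives that took well column into account, at 0.75 with column as a factor (FDR 0.0235) and 0.94 in well column 7 alone (FDR 0.0186), against 0.31 (FDR 0.523) over all columns. In pgWAT, where 1 gene in all (0.0113%) was called between labelled sexes, Ly6a was 0.87 lower in labelled male on the log2 scale (95% interval -1.52 to -0.23, FDR 0.410), and Cd34 0.71 higher (FDR 0.635). The test of whether the depot contrasts of the 2 labelled sexes differed called no member by any of the 3 tools, with 0.181% of all genes called and 2 of 8 members, against 8.72% of all genes, at an unadjusted p below 0.05; Ly6a came nearest at -1.18 (unadjusted p = 0.00402, FDR 0.312), then Dpp4 at -1.20 (FDR 0.515). Without the 5 doubtful libraries Cd34 passed both tests by edgeR. It was 1.88 higher in labelled male pgWAT (FDR 0.0123), and the difference of depot contrasts was 1.92 (FDR 0.0354). In pgWAT both values then rest on male replicates 1 and 3 against female replicates 4 to 6. Over all genes 536 and 244 were called in these 2 tests, against 1 and 16 with all libraries.

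**Figure D3:**
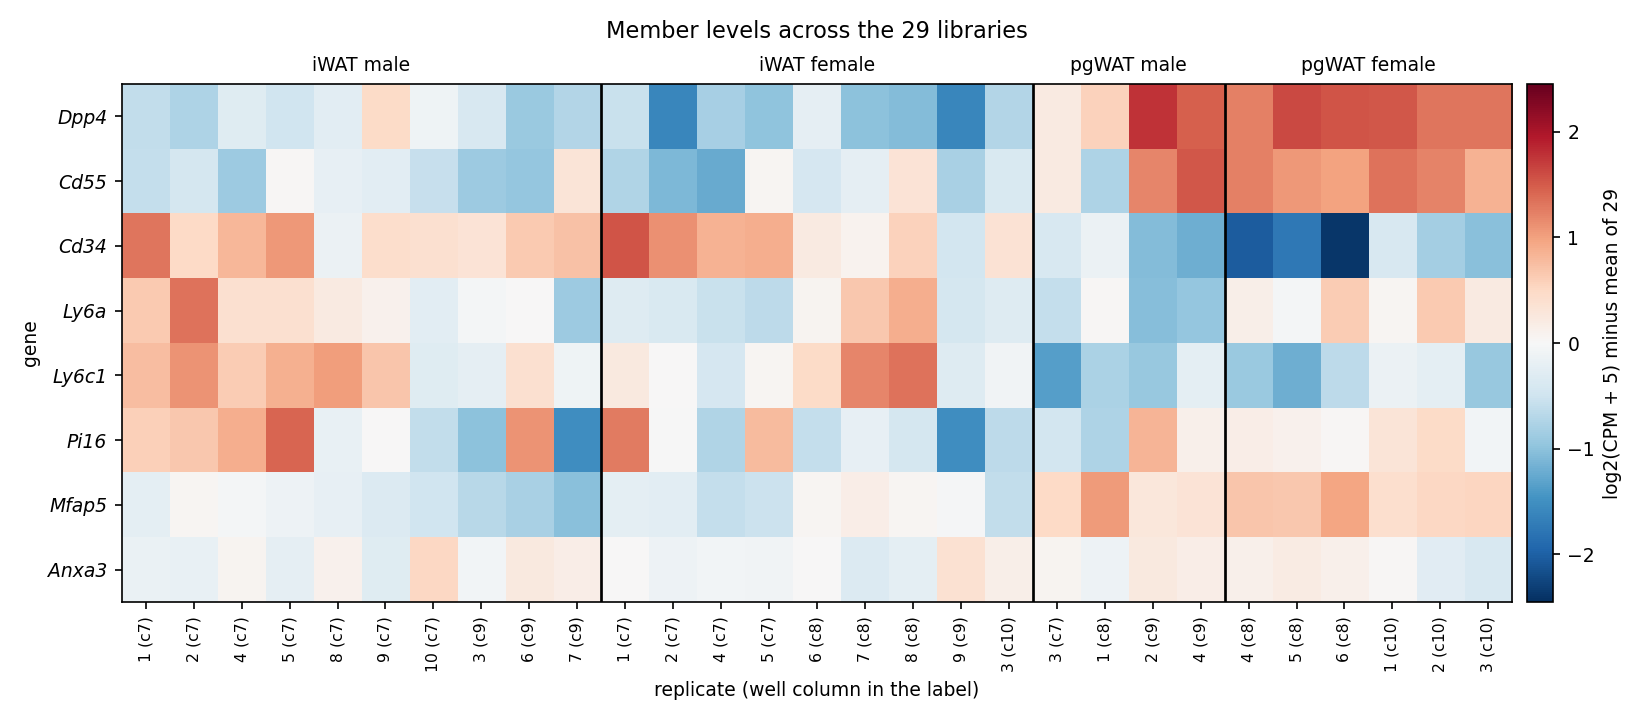
Member levels across the 29 libraries. Colour gives log2(CPM + 5) minus the gene's mean over 29 libraries (red above, blue below), with libraries ordered by labelled group and then by well column (c7 to c10 in brackets). The Dpp4 and Cd55 rows turn mostly from blue to red at the border of the depots, except in pgWAT male replicates 1 and 3, and the 3 bluest Cd34 cells are pgWAT female replicates 4 to 6 of well column 8.

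Within pgWAT, labelled male replicates 1 and 3 differed from the other 8 wells in several members at once. They held the lowest Dpp4 (17.4 and 12.5 CPM, others 30.4 to 46.7), the lowest Cd55 (5.21 and 15.3, others 26.0 to 45.0), the lowest Pi16 (3.47 and 5.55, others 8.68 to 20.7) and the highest Cd34 (95.5 and 80.5, others 16.3 to 80.0). Their Mfap5 (1637 and 1108 CPM) and Anxa3 (385 and 439 CPM) were not set apart from the others as a pair. In the same wells the summed macrophage and leukocyte markers (9 genes, none at 0 in all libraries) stood at 7102 and 7650 CPM against 656 to 3211 CPM in the other 8, and the summed proliferation genes at 1055 and 1097 CPM against 518 to 673 CPM. These are the only pgWAT wells labelled male with matching sex-linked counts, and they come from well columns 8 and 7. Labelled female replicates 2 and 3 also held Y-linked counts (23 and 26) and 0 counts of Xist. Their Dpp4 stood at 32.5 CPM in each, and their Cd55 at 35.0 and 26.0 CPM. Cd34 in well column 10, which held these wells and labelled female replicate 1, ran from 49.9 through 57.5 to 80.0 CPM. Labelled male replicates 2 and 4 and labelled female replicates 4 to 6, with mostly Xist counts, held 16.3 to 48.4 CPM of Cd34. The parts of sex, well position, cell make-up and the macrophage markers in the member levels were not tested.

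Whether the members moved together from well to well was asked within each depot, so that the depot difference itself could not create a correlation. Pearson r of log2 CPM was computed for all 28 pairs of the 8 tested members in the 19 iWAT and in the 10 pgWAT wells, 56 pairs in all, with 100000 permutations per pair and Benjamini-Hochberg adjustment over the 56. The median r was 0.06 in iWAT and -0.10 in pgWAT, against -0.002 and -0.0007 over all 39183378 pairs of tested genes, and r was above 0 in 15 and 13 of 28 pairs. As a set, the pairs leaned to neither sign. In all, 7 pairs passed at an adjusted p below 0.05, 5 in iWAT (17.9% of pairs) and 2 in pgWAT (7.14%), and none passed in both depots; with values centred on the labelled groups, Ly6a and Mfap5 did. Of all pairs of tested genes, 2.04% in iWAT and 1.04% in pgWAT had an r at least as far from 0 as the weakest member pair that passed.

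The firmest group was that of Ly6a, Ly6c1 and Mfap5 in iWAT. Ly6a and Ly6c1 rose and fell together with r = 0.858 (permutation p = 1e-05, the smallest that 100000 permutations can give, adjusted p = 0.00056; rho = 0.865 with the same p), and r was 0.883 after leaving out the 2 wells farthest from the median. Mfap5 went with both, at r = 0.678 with Ly6a (adjusted permutation p = 0.0418, 0.560 without 2 wells, rho = 0.674) and r = 0.638 with Ly6c1 (adjusted permutation p = 0.0462, 0.532 without 2 wells, rho = 0.649). The adjusted permutation p of rho was 0.0498 for both. With a prior count of 0.5 in place of 2, the pair of Ly6c1 and Mfap5 no longer passed (r = 0.637, adjusted permutation p = 0.0519). In well column 7 alone, with 11 wells, the 3 pairs gave r = 0.838, 0.831 and 0.825 (adjusted permutation p = 0.0167, 0.0167 and 0.0201), so the relation was also present within 1 column. In pgWAT the same pairs gave r = 0.206, 0.610 and -0.166, and none passed. Shared sequence, given above, can carry reads between Ly6a and Ly6c1 and was not tested as a part of their correlation; Mfap5 shares no sequence with either.

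The other 2 iWAT pairs held less firmly. Pi16 and Cd34 gave r = 0.607 (adjusted permutation p = 0.0462, 0.601 without 2 wells; rho = 0.573, adjusted permutation p = 0.119) but 0.533 in well column 7 alone (adjusted permutation p = 0.453). Anxa3 and Ly6c1 went in opposite directions, at r = -0.611 (adjusted permutation p = 0.0462, -0.480 without 2 wells, rho = -0.642 with adjusted permutation p = 0.0498), and at -0.438 in well column 7 alone (adjusted permutation p = 0.544). Dpp4 correlated with no other member in iWAT, its values of r lying between -0.095 and 0.179, at a level where most wells hold 3 counts or fewer.

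In pgWAT the 2 pairs that passed both held Pi16. Pi16 went with Cd55 at r = 0.842 (adjusted permutation p = 0.0418) and with Dpp4 at r = 0.812 (adjusted permutation p = 0.0462), and Dpp4 with Cd55 at r = 0.773 (adjusted permutation p = 0.136). By rank the 3 pairs gave rho = 0.770, 0.515 and 0.346 and none passed (adjusted permutation p = 0.119, 0.372 and 0.630). After leaving out the 2 wells farthest from the median of Cd55 (first pair) or Dpp4 (other pairs), r fell to 0.337, 0.484 and 0.030. For both genes these wells were labelled male replicates 1 and 3, the wells with the highest macrophage and leukocyte sums, so the relations rest on them. No well column held 6 pgWAT wells, and 5 wells were left without the doubtful libraries, so neither could give a value within them.

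**Figure D4:**
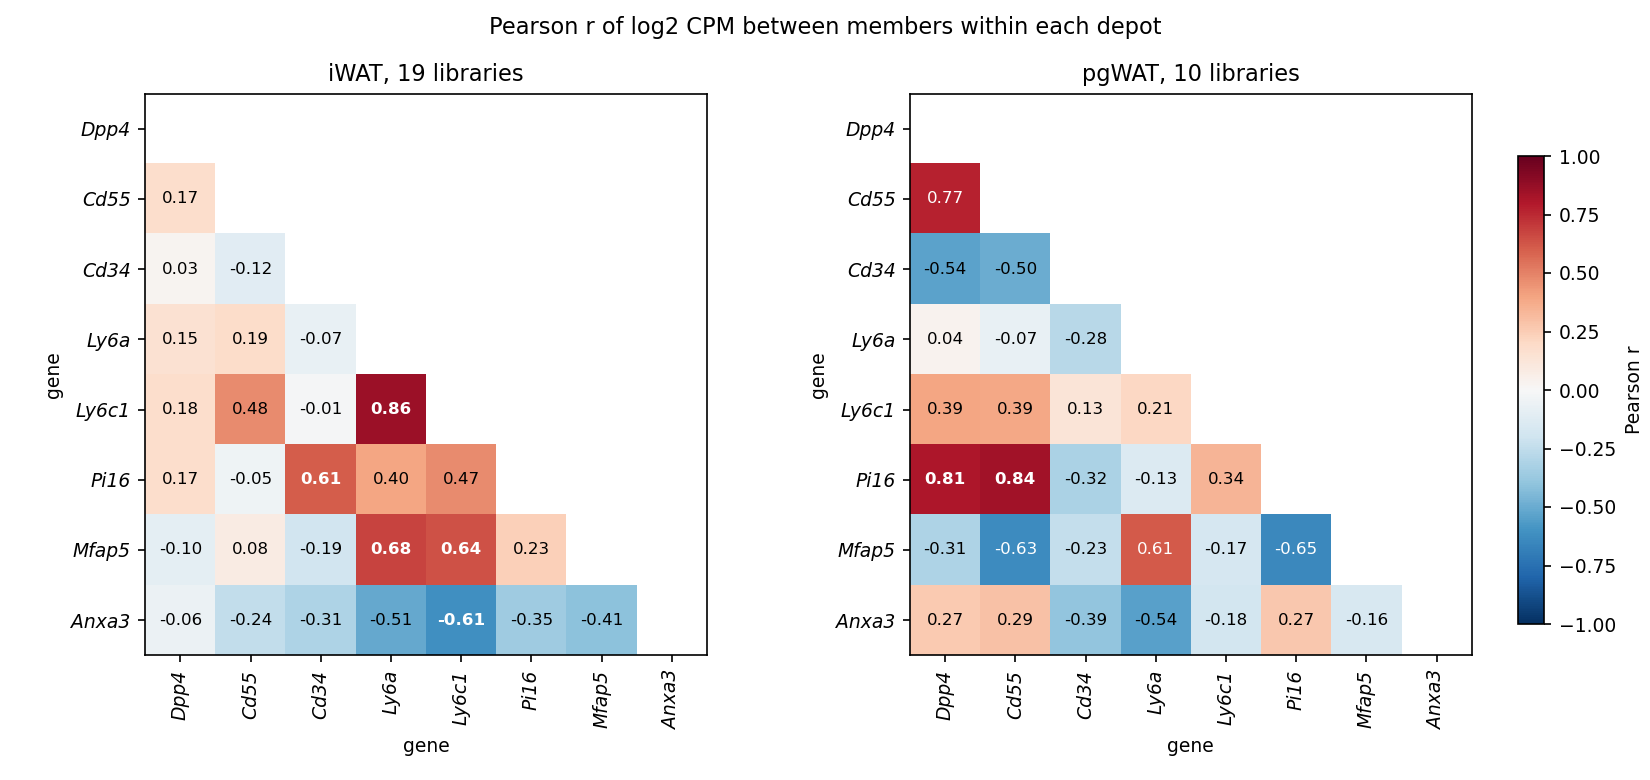
Pearson r of log2 CPM between members in 19 iWAT wells (left) and 10 pgWAT wells (right). Red cells are positive and blue negative, the numbers give r, and bold numbers passed an adjusted permutation p of 0.05. In iWAT the bold positive cells join Ly6a, Ly6c1 and Mfap5 and Pi16 with Cd34, and in pgWAT they join Pi16 with Dpp4 and Cd55.

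**Figure D5:**
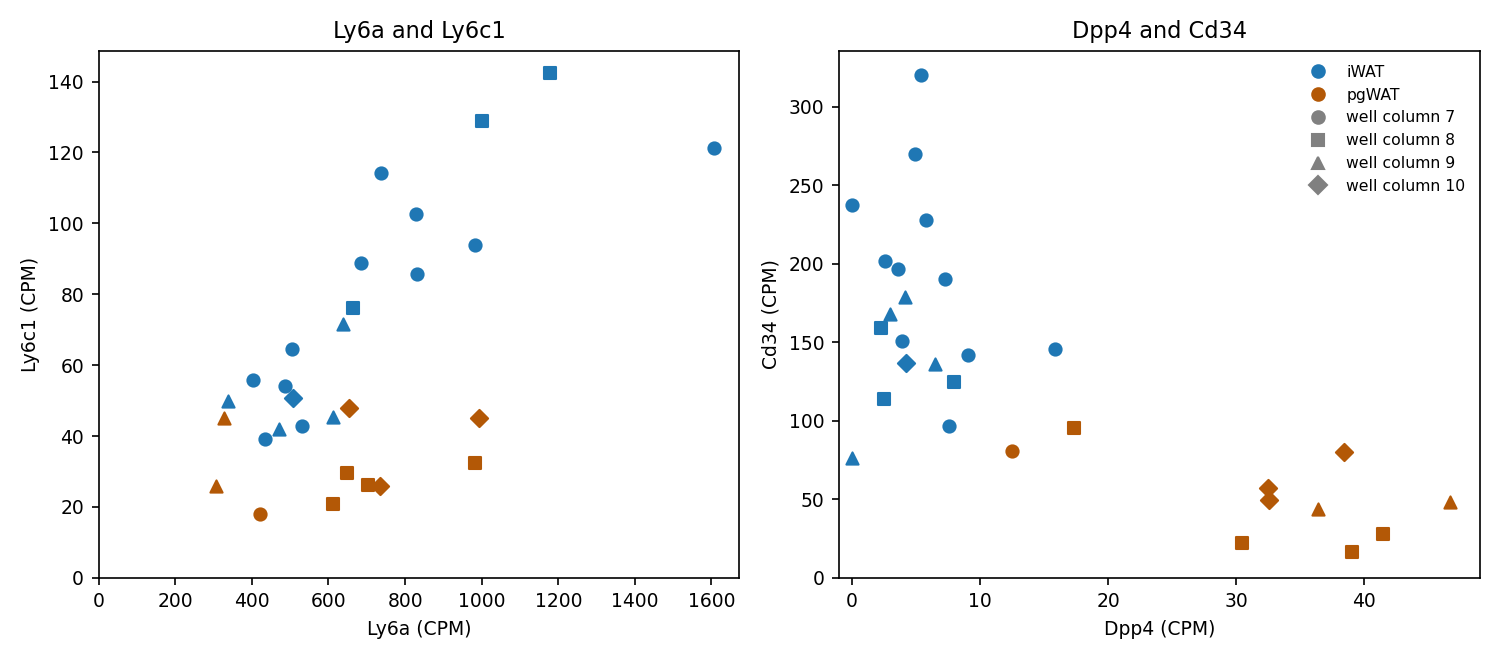
Pairs of members in single wells, in CPM on linear axes, with iWAT in blue, pgWAT in orange and the marker shape giving the well column. On the left Ly6c1 climbs with Ly6a among iWAT wells and stays at 48.0 CPM or below in pgWAT; on the right most iWAT wells have low Dpp4 and high Cd34, most pgWAT wells the reverse, and 2 pgWAT wells with 12.5 and 17.4 CPM of Dpp4 lie between.

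Genes whose pattern was most like each member were sought among 4990 genes with an average log2 CPM of at least 5, by the mean of the r in 19 iWAT and the r in 10 pgWAT wells. For Ly6a these were the interferon-inducible genes Ifitm3 (mean r 0.897), Rnf213 (0.857) and Ifitm2 (0.846). For Ly6c1 they were Selenow (0.794), Agtrap (0.739) and Surf1 (0.725), and for Mfap5 Ccl11 (0.832), which encodes the chemokine eotaxin, Tpt1-ps3 (0.777) and Pqbp1 (0.769). Cd34 was closest to Sirt2 (0.802), Emp1 (0.790) and Pld3 (0.787). Pi16 was closest to Arsa (0.779) and to the collagen VI genes Col6a1 (0.720) and Col6a2 (0.711), and Anxa3 to Hspa8 (0.811), Rbbp7 (0.758) and Lrrfip1 (0.746). Dpp4 was closest to Me1 (0.749), Adk (0.71) and Pan3 (0.704), and Cd55 to Csnk1a1 (0.698), Taok1 (0.684) and Marf1 (0.637). No member was among the 3 closest genes of another member. The highest of 4990 values is high by the search itself, so these are given as a description.

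A further 30 genes taken as markers of interstitial progenitors also went both ways. Of these, 16 passed the filter, and in pgWAT 8 were higher, 3 lower and 5 not called, with a median log2 fold change of 0.40. Over all genes tested 20.1% were called higher and 17.9% lower, a share that also applies to the list counts below. The higher ones were led by Pcolce2, an enhancer of procollagen processing (2.81, FDR 8.32e-09), Heg1, a membrane mucin of endothelial junctions (2.05, FDR 1.23e-10), Ackr3, a scavenging receptor of CXCL12 (1.83, FDR 1.00e-08), and Klf4, a zinc-finger transcription factor (1.46, FDR 5.24e-07). The 3 lower ones were the ligand gene Wnt2 (-1.37, FDR 0.00274), the IGF-binding protein gene Igfbp5 (-1.23, FDR 0.0130) and Uap1, a UDP-sugar enzyme (-0.34, FDR 0.0234), all by edgeR's quasi-likelihood test. Of 12 genes of committed preadipocytes, 11 passed the filter, with 5 higher and 3 lower in pgWAT, so neither list went one way gene by gene. Their sums did separate the depots. The interstitial list summed to 1565 to 1853 CPM in iWAT and 1910 to 2782 CPM in pgWAT. The committed list summed to 1211 to 2813 CPM in iWAT and 2989 to 3513 CPM in pgWAT. A sum follows its most abundant genes, and mean Lpl was 465 CPM in iWAT and 1650 CPM in pgWAT. Lpl was not alone in rising: mean Icam1, also on the committed list, was 79.6 CPM in iWAT and 117.8 CPM in pgWAT. Further committed genes called higher in pgWAT are not named here. Means of Pparg (40.6 and 11.4 CPM), Dlk1 (30.1 and 0.590 CPM) and Plin2 (856 and 541 CPM) went the other way.

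Markers of other cells moved with the depot beside the members, against 20.1% of all genes tested called higher and 17.9% lower in pgWAT. Of 8 mesothelial markers 4 were tested, 3 higher in pgWAT (Upk3b, Upk1b and Wt1) and 1 lower (Krt19), and Muc16 had 1 count in all. Their sum was 1.96 to 104 CPM in iWAT and 59.0 to 189 CPM in pgWAT. Means in iWAT and pgWAT were 0.0452 and 40.6 CPM for Upk3b, 0.440 and 22.3 for Wt1, and 0.222 and 22.2 for Upk1b. Those of Krt19 were 23.7 and 10.2 CPM. The study describes a DPP4-positive cell layer on the surface of pgWAT, placed where mesothelial cells lie. Of 6 fibroblast markers 5 were higher, with sums of 6387 to 12199 CPM in iWAT and 11686.5 to 22688 CPM in pgWAT. Of 9 macrophage and leukocyte markers 4 were tested and 2 (Cd68 and Lyz2) were higher, with sums of 589 to 2387 CPM in iWAT and 656 to 7650 CPM in pgWAT. The median sum was 1386 CPM in iWAT and 1586 CPM in pgWAT. It was 1056 CPM in the 8 pgWAT wells other than labelled male replicates 1 and 3. Mean Lyz2 also differed within iWAT, at 1670 CPM in male and 705 CPM in female wells. Of 8 proliferation genes 7 were lower, with sums of 934 to 1456 CPM in iWAT and 518 to 1097 CPM in pgWAT. Of 10 interferon-stimulated genes 2 were higher, with sums of 526 to 5942 CPM in iWAT and 1312 to 4236 CPM in pgWAT. The single mural cell marker tested was not called. The part of these cells and states in the depot differences of the members was not tested.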

How the data were processed

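Per the labels, stromal vascular cells of 2 fat depots and both sexes were cultured for 4 days, and 29 Smart-seq3 libraries were made. The authors made the deposited estimated counts per gene by adapter trimming (NGmerge) and Salmon quantification (1.9.0 in the submitters' notes) on the Gencode vM32 transcriptome of GRCm39. They left out wells in which few genes were seen. Counts are not normalized, UMI reads and others are summed, and 85.1% of values above 0 are exactly whole. Values were rounded to whole counts; 91.4% of features were matched to a symbol by Ensembl ID. Features without a symbol held 0.439% of counts and stayed in library sizes and tests.

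Groups were taken from the labels, and replicates numbered in order of deposition. Tests used edgeR 4.0.16 in R 4.3.3: filterByExpr on the 4 groups, TMM, 1 mean per group over all 29 libraries, glmQLFit and glmQLFTest, called at FDR below 0.05. SEs and 95% intervals were derived from the F statistic. The study used DESeq2 for these cultures; DESeq2 1.42.0 and limma-voom 3.58.1 served as alternatives, as did RLE and total-count scaling, other filters, well column as a factor, no term for sex, single well columns, and leaving out 5 pgWAT libraries or each library. Correlations used log2 CPM with a prior count of 2. Where 2 wells were left out of a pair, they were those farthest from the median of 1 gene. That gene was the one that comes first in the list of members at the start. Both kinds of test recovered known changes in simulated data. The simulated wells were independent, without shared experiments or well columns, so they cannot show how the tests behave with such structure.

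The members, the gene lists and the tests were chosen with earlier results of these data known. All 9 members are described; named beside them are sequence relatives, of the other interstitial genes the 4 largest called changes in each direction, and for each tested member the 3 genes nearest in pattern. Sequence comparisons used GENCODE M21 and RefSeq tables on GRCm38, and no other coordinates are given because the counts were made on GRCm39.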

Additional observations from a re-analysis of the deposited data

Results flagged for a closer look

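In all, 2 values of single wells lay far from the rest of their group by Dixon's test at the 95% level, which was run on 32 groups of 4 to 10 wells (8 members in 4 groups) and flags about 1 in 20 such groups by chance. Ly6a in iWAT male replicate 2 was 1608 CPM, against 983 CPM in the next well of the group. The summed interferon-stimulated genes of that well, 5942 CPM, were also the highest of all 29 libraries, with the next at 4236 CPM, and its Ly6c1 (121 CPM) was the highest of iWAT male. Without this well the labelled male depot difference of Ly6a was -0.70 (FDR 0.0555 by edgeR) in place of -0.87 (FDR 0.0324). Dpp4 in iWAT male replicate 9 was 15.8 CPM, against 9.03 CPM in the next well. It rests on 5 counts in a library of 316738, the smallest of the iWAT libraries.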

How the results depend on the processing

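No paired analysis was possible because the labels give no replicate numbers. Of the members called between depots, all 5 remained called in the same direction in every alternative run, with log2 ranges of 2.29 to 2.89 for Dpp4 (37 alternatives, as it failed the filter of 10 counts in 10 libraries), 1.14 to 1.94 for Cd55, 0.78 to 1.05 for Mfap5, -1.96 to -1.63 for Cd34 and -1.68 to -1.23 for Ly6c1 (38 each). Pi16 reversed to 0.40 with well column as a factor, where 2710 genes were called in place of 3371, and Ly6a in labelled female reversed to -0.33 in well column 8 alone (FDR 0.250). The count of members or pairs called moved by over 1.5 times in 8 cases: from 6 to 2 in labelled male and from 0 to 1 for labelled sex in pgWAT and for the interaction without the 5 pgWAT libraries; from 0 to 1 for the interaction with no filter (Ly6a, -1.15, FDR 0.0231); from 0 to 1 for sex in iWAT with well column as a factor or in well column 7 alone; and, for correlations, from 7 to 3 with a prior count of 0.5 and from 5 to 3 in iWAT in well column 7 alone. Smaller moves were to 6 members in the main depot contrast with no filter (Limch1 added) or with well column as a factor (Ly6a added), to 4 there, 5 in labelled male and 4 in labelled female under the strict filter, which drops Dpp4, to 5 in labelled male in well column 9 alone, and to 10 pairs with values centred on the labelled groups. With single libraries left out, the members called ranged from 4 to 6 in labelled male and were 5 in every other depot contrast. Without the 5 pgWAT libraries the genes called over all went from 1801 to 872 in labelled male. They went from 1 to 536 for labelled sex in pgWAT and from 16 to 244 for the interaction. The causes were not tested. Correlations without the 5 pgWAT libraries were not run, since 5 wells remain. Depth limits Dpp4, Cd55 and Pi16, whose wells hold 0 to 42 counts, and Limch1, which did not pass the main filter.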
